A study of Mus musculus with 19 samples.

Results

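The genes described here encode 2 kinds of brake on mitogen-activated protein kinase (MAPK) signalling: the dual-specificity phosphatases Dusp1, Dusp2, Dusp4, Dusp5, Dusp6, Dusp7 and Dusp10, and the feedback inhibitors Spry1, Spry2 and Spred1. They were chosen by name, as genes with a probe set that the platform annotation assigns to a single symbol, and all 10 were found among 19752 genes measured. Each had 1 such probe set, so no choice between probe sets was needed. Their levels were followed over all 9 treatment groups of a study of mouse splenic natural killer (NK) cells, lymphocytes that kill infected and transformed cells without prior priming, profiled on Affymetrix Mouse Gene 1.0 ST arrays.

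The cells came from male C57BL/6 mice 6 weeks of age and were enriched from spleen by negative selection, which removes other cells and leaves NK cells untouched. Cells with interleukin-2 (IL-2) at 250 U/ml for 8 h and a JAK1 inhibitor, coded 3404 in the sample titles, gave 1 sample each at 0.0625 and 4 µM and 2 samples each at 0.25 and 1 µM. A JAK3 inhibitor, coded 6226, was given with the same IL-2 at 0.25, 1 and 4 µM, with 2 samples a dose. IL-2 alone gave 4 samples and untreated cells gave 3, of which untreated replicate 2 had no culture time in its label. No label tells whether replicates were separate mice, cultures or repeat arrays, so the p-values reflect spread among these arrays alone, and that spread may be technical. Bulk arrays cannot tell fewer cells of a type apart from less RNA per cell.

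The deposited intensities lay on 2 scales, with log2 medians of 7.49 to 7.59 in 7 samples (the high-intensity set) and of 5.70 to 5.90 in 12 samples (the low-intensity set). The high-intensity set held untreated replicate 2, IL-2 replicates 1 and 2, and replicate 1 of each inhibitor at 0.25 and 1 µM, so both samples of 4 µM JAK3 inhibitor and the single samples of JAK1 inhibitor lay in the low-intensity set. Levels below are log2 intensities with each gene's fitted set difference taken off the high-intensity samples, and changes are log2 differences between group means ± SE from limma, with a gene called at an adjusted p under 0.05. A pair of low-intensity samples read low across the array: untreated replicate 3 was below replicate 4 for 68.3% of genes, and JAK3 inhibitor 4 µM replicate 1 was below replicate 2 for 70.9% of genes. Of the 10 genes described here, 8 were lower in untreated replicate 3 than in replicate 4, with a median difference of -0.41 beside -0.14 over all genes. In JAK3 inhibitor 4 µM replicate 1, 10 were lower than in replicate 2, with a median of -0.52 beside -0.19. IL-2 replicate 1 was below replicate 2 for 9 of the 10 (median -0.26) but for only 44.4% of all genes. Values without untreated replicate 3 or JAK3 inhibitor 4 µM replicate 1, called the low-reading samples below, are given beside the results they move.

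As background, the IL-2 receptor signals through JAK1, bound to its beta chain, and JAK3, bound to the common gamma chain, into STAT5, PI3-kinase and the RAS-RAF-MEK-ERK cascade. Dual-specificity phosphatases remove the phosphates from both the threonine and the tyrosine that activate a MAPK. Sprouty and Spred proteins act further up, between the receptor and RAF. Many of these genes are themselves transcribed in response to MAPK signalling, which makes them negative feedback genes and a common readout of pathway output.

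The nuclear phosphatases are Dusp1 (probe set 10449284, gene at chr17:26505591-26508472 in GRCm38.p6), Dusp2 (10475782, chr2:127336159-127338377), Dusp4 (10571312, chr8:34807610-34819894) and Dusp5 (10463945, chr19:53529145-53541809). The cytoplasmic ERK phosphatases are Dusp6 (10366043, chr10:99263231-99267489) and Dusp7 (10588495, chr9:106368560-106375724), and Dusp10 (10352448, chr1:184034381-184075636) acts on JNK and p38. The feedback inhibitors are Spry1 (10491721, chr3:37639947-37644599), Spry2 (10422227, chr14:105891947-105896819) and Spred1 (10474671, chr2:117121071-117182279).

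Promoter windows from RefSeq on GRCm38.p6, were matched for 9 of the 10 genes (all but Dusp4). They hold 250 bases before and 50 from the gene start on in 8 genes, while that of Dusp7 begins 178 bases before the gene start given above. Those of Dusp5, Spry2 and Dusp1 are shown because these genes were called most often in the comparisons below. The windows lie at chr19:53528895-53529194 on the plus strand for Dusp5, chr14:105896770-105897069 on the minus strand for Spry2 and chr17:26508423-26508722 on the minus strand for Dusp1. Capitals mark a pair of adjoining CArG boxes, the motif bound by serum response factor, in Dusp5 and a cyclic AMP response element in Dusp1. The Spry2 window holds none of the motifs searched.
Dusp5: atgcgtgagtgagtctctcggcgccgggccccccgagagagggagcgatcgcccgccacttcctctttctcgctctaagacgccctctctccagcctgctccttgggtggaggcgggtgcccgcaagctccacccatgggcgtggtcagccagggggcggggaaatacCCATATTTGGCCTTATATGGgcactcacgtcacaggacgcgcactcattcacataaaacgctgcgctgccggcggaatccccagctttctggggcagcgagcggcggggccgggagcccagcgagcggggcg
Spry2: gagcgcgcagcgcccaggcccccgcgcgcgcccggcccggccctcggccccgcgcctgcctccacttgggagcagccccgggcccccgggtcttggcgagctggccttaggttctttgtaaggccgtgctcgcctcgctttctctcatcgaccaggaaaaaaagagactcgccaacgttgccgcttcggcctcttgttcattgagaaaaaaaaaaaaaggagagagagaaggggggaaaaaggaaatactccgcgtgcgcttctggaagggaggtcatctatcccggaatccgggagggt
Dusp1: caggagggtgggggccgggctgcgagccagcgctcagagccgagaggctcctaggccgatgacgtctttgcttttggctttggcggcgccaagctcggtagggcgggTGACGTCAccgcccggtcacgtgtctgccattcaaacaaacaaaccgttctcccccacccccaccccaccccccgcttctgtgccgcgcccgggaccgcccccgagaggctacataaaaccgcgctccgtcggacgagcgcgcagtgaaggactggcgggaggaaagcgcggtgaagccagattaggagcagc

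The 9 windows were rich in G and C, at 57.3% to 78.7% with a median of 66.7%, beside a median of 52.7% over 32851 windows of the same length. Their ratio of observed to expected CpG pairs ran between 0.71 and 1.03, with a median of 0.90, beside 0.38 over all windows. The STAT dimer motif TTCNNNGAA was found on either strand in 0 of the 9 windows and in 8.3% of all windows. The ETS motif CCGGAAGT was found in 0 of 9 and in 3.89% of all windows. The cyclic AMP response element TGACGTCA was found in 1 of 9, Dusp1, at base -143 from the gene start, and in 1.79% of all windows. The CArG box was found in 1 of 9, Dusp5, at bases -82 and -72, and in 1.63% of all windows, a search added once the sequences had been seen. A match in these letters is a description and shows no binding.

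IL-2 raised 4 of the 10 genes over untreated cells at 8 h, while 6.56% of all genes were called as higher, and lowered 0 by the test, while 2.59% of all genes were called as lower. The 4 were the ERK phosphatases Dusp5 and Dusp6 and the feedback inhibitors Spry2 and Spred1, each at 1.69 to 1.91 times its untreated level. The median change over the 10 genes was 0.37 on the log2 scale, beside -0.01 over all genes. Dusp1, a phosphatase of JNK, p38 and ERK, differed in the other direction and missed the threshold.

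Dusp5, which encodes a nuclear phosphatase specific for ERK, had log2 levels of 8.35, 8.89, 8.99 and 8.89 in IL-2 samples 1 to 4, against 8.25, 7.44 and 7.84 in untreated samples 2 to 4. Every IL-2 sample lay above every untreated sample, although IL-2 replicate 1 was close to untreated replicate 2. How many of all genes separate their groups in this way was not counted, here or in the comparisons below. The means were 8.78 ± 0.29 with IL-2 (SD, n = 4) and 7.84 ± 0.41 in untreated cells (SD, n = 3), a change of 0.94 ± 0.19 (adjusted p = 0.00256). Its call held when any 1 sample of either group was left out, the smallest change being 0.73 without untreated replicate 3.

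Spry2, an adaptor that restrains the RAS-ERK cascade downstream of receptor tyrosine kinases, had levels of 7.03, 7.43, 7.50 and 7.58 in IL-2 samples, against 6.72, 6.26 and 6.41 in untreated samples. The groups did not overlap, and this gene had the widest gap between them among the 4 called. The change was 0.92 ± 0.17 (adjusted p = 0.000954), and the call held with any 1 sample left out.

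Dusp6, a cytoplasmic phosphatase specific for ERK, had levels of 7.06, 7.56, 7.35 and 7.55 in IL-2 samples, against 7.04, 6.21 and 6.62 in untreated samples. IL-2 replicate 1 and untreated replicate 2 were nearly level, and the other samples separated clearly. The change was 0.75 ± 0.19 (adjusted p = 0.0151). This call was lost without untreated replicate 3 (0.55, adjusted p = 0.0941), without untreated replicate 4 (adjusted p = 0.05001), and without IL-2 replicate 2 (adjusted p = 0.0504) or 4 (adjusted p = 0.0703).

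Spred1, which blocks RAF activation at the membrane, had levels of 6.56, 7.05, 7.05 and 6.92 in IL-2 samples, against 6.49, 5.51 and 6.16 in untreated samples. Here the untreated samples spread over almost a whole log2 unit, with replicate 3 lowest. The change was 0.84 ± 0.23 (adjusted p = 0.0197). It was no longer called without untreated replicate 3 (0.57, adjusted p = 0.142) or without IL-2 replicate 2 (adjusted p = 0.0555), 3 (adjusted p = 0.0792) or 4 (adjusted p = 0.0598).

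Dusp10, a phosphatase of JNK and p38, had levels of 7.43, 7.61, 7.64 and 7.41 with IL-2, against 7.21, 6.63 and 7.21 in untreated cells. The groups did not overlap, but the change of 0.50 ± 0.17 did not pass (adjusted p = 0.0731). It passed without untreated replicate 2 (0.63, adjusted p = 0.0294).

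Dusp1 had levels of 7.40, 7.54, 7.50 and 7.72 with IL-2, against 8.24, 7.76 and 8.04 in untreated cells. All IL-2 samples lay below all untreated samples, by a narrow margin between IL-2 replicate 4 and untreated replicate 3. The change of -0.47 ± 0.16 did not pass (adjusted p = 0.0643), and did so without untreated replicate 3 (-0.60, adjusted p = 0.0158).

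The remaining 4 genes showed small differences with overlapping groups. Dusp2, an inducible nuclear phosphatase of lymphocytes, differed by 0.23 (adjusted p = 0.443), with levels between 7.03 and 7.36 in IL-2 samples and between 6.89 and 7.22 in untreated samples. Dusp7, a cytoplasmic relative of Dusp6, differed by 0.07 (adjusted p = 0.878). Dusp4, a nuclear phosphatase of ERK, JNK and p38, differed by 0.03 (adjusted p = 0.963), and Spry1, a close relative of Spry2, by 0.00 (adjusted p = 0.996). Spry1 is the one gene of the 10 whose high-intensity value was shared by at least 3 samples of that set, so those samples do not resolve it.

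For the 10 genes together, both low-reading samples were left out, untreated replicate 3 and JAK3 inhibitor 4 µM replicate 1. That fit kept the 4 calls and added Dusp1 as lower (-0.60, adjusted p = 0.00169). The inhibitor sample is in neither group compared here and enters only the shared estimate of spread. Without untreated replicate 3 alone Dusp6 and Spred1 were not called. Both samples were picked after the values had been seen, so the kept calls do not show that the result is stable. Within the low-intensity set alone Dusp5, Dusp6 and Spry2 were called, and without the term for the set 0 of 10 were called with IL-2.

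**Figure D1:**
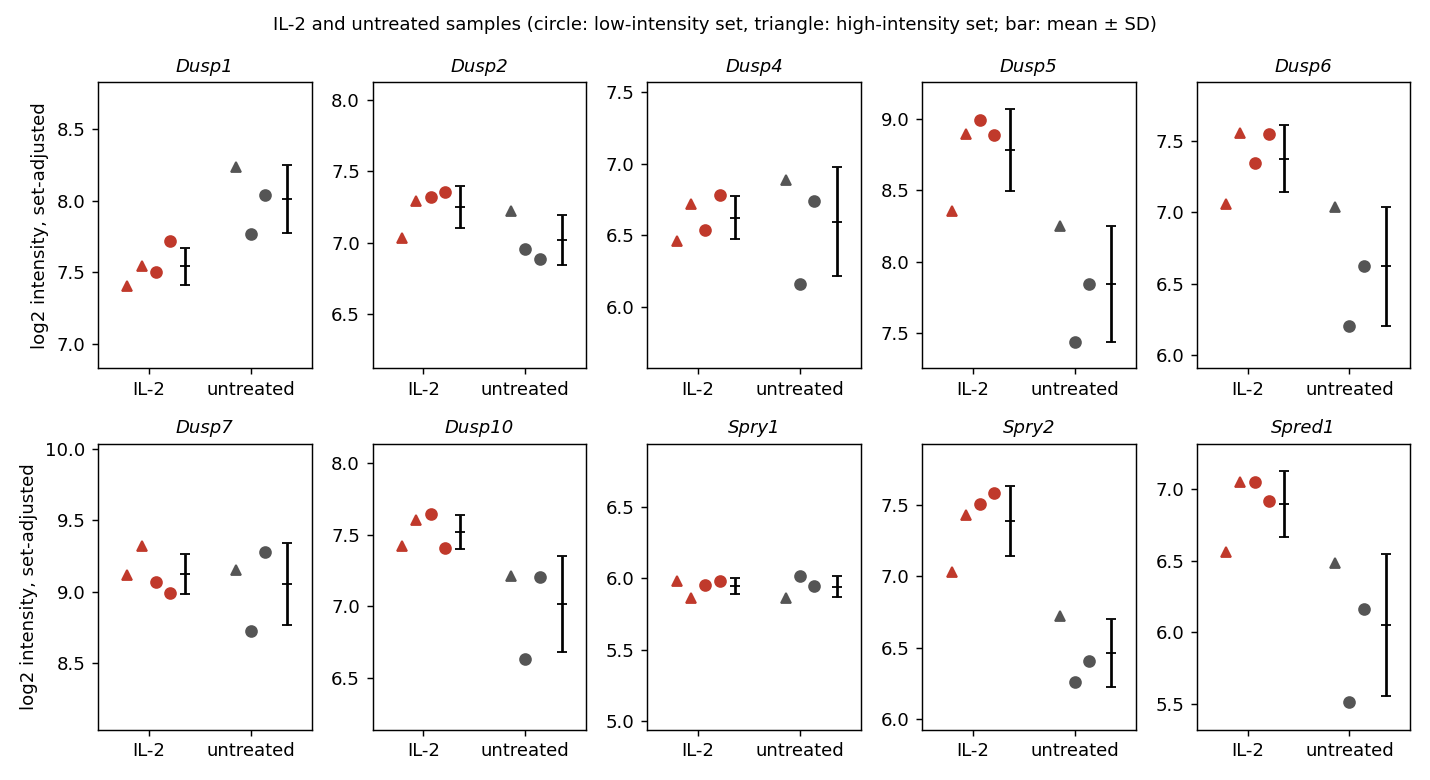
Log2 intensity after the set adjustment (y axis) of each of the 10 genes in the 4 IL-2 samples and the 3 untreated samples (x axis), with triangles for the high-intensity set, circles for the low-intensity set and bars for the mean ± SD. Dusp5, Dusp6, Spry2, Spred1 and Dusp10 lie higher in every IL-2 sample than in any untreated sample, and Dusp1 lies lower. For Dusp6 the margin is narrow (7.06 against 7.04). The share of all genes that separate in this way was not counted.

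The size of the IL-2 change differed between the intensity sets, which hold 2 IL-2 samples each, with 2 untreated samples in the low-intensity set and 1 in the high-intensity set. Dusp5 was higher with IL-2 by 1.30 in the low-intensity set and by 0.37 in the high-intensity set. Spry2 was higher by 1.21 and 0.51, Spred1 by 1.15 and 0.32, and Dusp6 by 1.03 and 0.27 in the same order of sets. Dusp10 was higher by 0.61 in the low-intensity set and by 0.31 in the high-intensity set. All 5 kept their direction in both sets. Without untreated replicate 3, which left 1 untreated sample in the low-intensity set, the differences there were 1.096 for Dusp5, 1.13 for Spry2, 0.82 for Spred1, 0.82 for Dusp6 and 0.32 for Dusp10. The first 4 were still above those of the high-intensity set, whose untreated sample has no culture time in its label, and Dusp10 was about level in both. The Dusp1 difference was -0.29 in the low-intensity set, or -0.43 without untreated replicate 3, and -0.77 in the high-intensity set. The difference between the sets was not tested, and in the high-intensity set its level and its only untreated sample cannot be told apart.

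**Figure D2:**
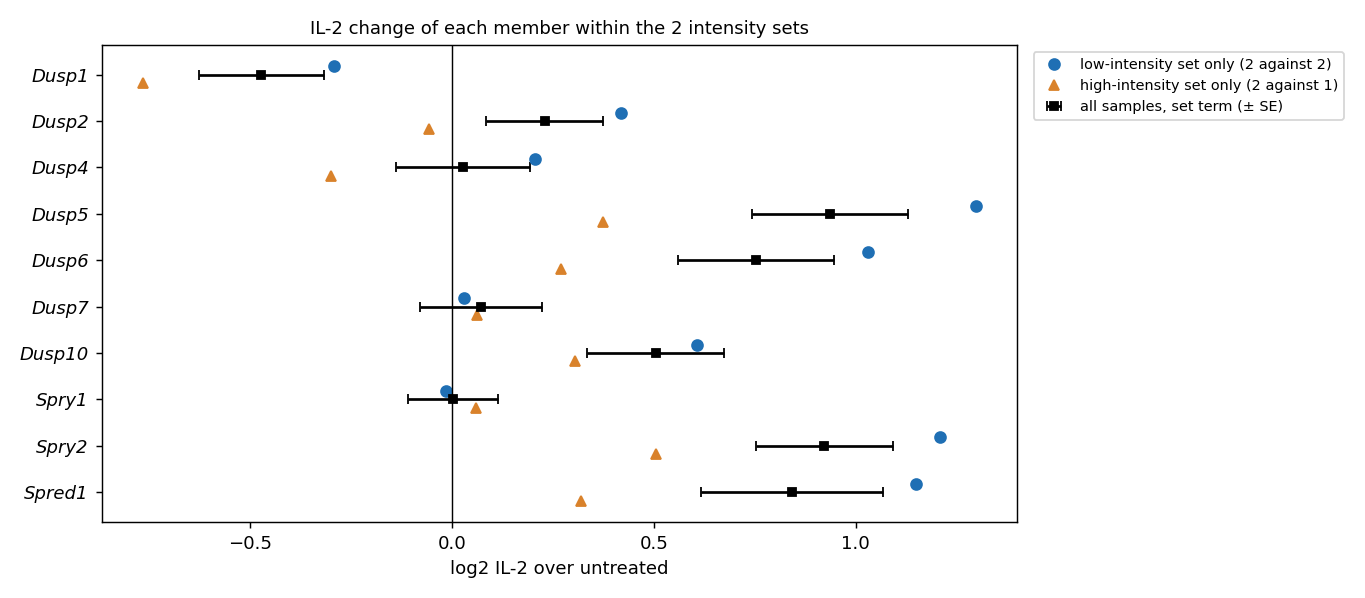
Log2 change, IL-2 over untreated (x axis), of each of the 10 genes (rows) within the low-intensity set (circles), within the high-intensity set (triangles) and in the fit over all samples (squares, bars ± SE). Dusp5, Dusp6, Spry2, Spred1 and Dusp10 lie right of 0 in both sets, and their circles, which include untreated replicate 3, lie right of their triangles.

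The inhibitor groups give the levels of these genes in bulk RNA of cells held with IL-2 and a compound together. All 7 inhibitor groups were compared with the same 4 IL-2 samples, so the comparisons share their controls. With the JAK1 inhibitor, 0 of 10 genes were higher than with IL-2 alone at 0.0625 µM (0.00506% of all genes), 0 at 0.25 µM (0.729%), 1 at 1 µM (2.85%) and 0 at 4 µM (1.14%). At the same doses 0 (0.0152% of all genes), 0 (1.52%), 0 (2.31%) and 1 (2.63%) of 10 were lower. At an unadjusted p under 0.05 the counts at 0.0625 and 0.25 µM were 0 and 3 of 10, beside 12.3% and 12.2% of all genes. The groups at 0.0625 and 4 µM hold 1 sample each, which the fit assumes to vary like the other groups. With the JAK3 inhibitor, 1 of 10 was higher at 0.25 µM (2.74% of all genes), 1 at 1 µM (2.86%) and 1 at 4 µM (3.01%), while 1 (2.26% of all genes), 2 (3.69%) and 1 (4.5%) were lower. The genes behind these counts were Dusp1, which was higher, and Spry2 and Dusp5, which were lower.

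Spry2 was the gene lowered most often. Its log2 levels were 7.03 to 7.58 with IL-2 alone, 6.87 with 0.0625 µM JAK1 inhibitor, 6.90 and 6.90 at 0.25 µM, 7.09 and 6.75 at 1 µM, and 6.35 at 4 µM. All but 1 of these 6 inhibitor samples lay below the lowest IL-2 sample, and the 4 µM sample lay among the untreated ones. The fall at 4 µM was called (-1.03 ± 0.25, adjusted p = 0.024), and was lost without IL-2 replicate 3 (adjusted p = 0.0763) or 4 (adjusted p = 0.0842). With the JAK3 inhibitor the levels were 6.74 and 6.69 at 0.25 µM, 6.54 and 6.83 at 1 µM, and 6.51 and 7.08 at 4 µM. Only 4 µM replicate 2 reached the IL-2 range. Spry2 fell at 0.25 µM (-0.67 ± 0.19, adjusted p = 0.0495) and 1 µM (-0.70 ± 0.19, adjusted p = 0.03), and at 4 µM the change of -0.59 did not pass (adjusted p = 0.0872), and was -0.32 (adjusted p = 0.348) without the low-reading samples. The call at 0.25 µM was lost in 5 of 6 fits that left out 1 sample of the pair of groups, and so was that at 1 µM; both held without IL-2 replicate 1.

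Dusp5 had levels of 8.35 to 8.99 with IL-2 alone, and 8.32 and 8.30 at 0.25 µM JAK3 inhibitor, 7.84 and 8.20 at 1 µM, and 7.77 and 8.20 at 4 µM. All 6 lay below the lowest IL-2 sample. Dusp5 fell at 1 µM (-0.76 ± 0.22, adjusted p = 0.0379) and 4 µM (-0.80 ± 0.23, adjusted p = 0.0347) and missed the threshold at 0.25 µM (-0.47, adjusted p = 0.358). At 4 µM the call was lost without replicate 1 of the inhibitor (adjusted p = 0.233) or IL-2 replicate 2 (adjusted p = 0.0665), 3 (adjusted p = 0.139) or 4 (adjusted p = 0.116), and at 1 µM it was kept only without IL-2 replicate 1. With the JAK1 inhibitor the levels were 8.26 at 0.0625 µM, 8.21 and 8.38 at 0.25 µM, 8.53 and 8.20 at 1 µM, and 7.94 at 4 µM. These reached into the low end of the IL-2 range, and the change of -0.84 ± 0.29 at 4 µM did not pass (adjusted p = 0.129).

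Dusp6 and Spred1, both higher with IL-2 than in untreated cells, were not called in any of the 7 inhibitor comparisons. Dusp6 had levels of 7.06 to 7.56 with IL-2 alone, against which it differed by -0.15, -0.34, -0.16 and -0.73 with rising JAK1 inhibitor and by -0.45, -0.53 and -0.36 with rising JAK3 inhibitor. Spred1 differed by -0.50, -0.36, -0.34 and -0.94 with the JAK1 inhibitor and by -0.54, -0.51 and -0.80 with the JAK3 inhibitor. All 14 estimates lay below 0, but all subtract the same 4 IL-2 samples, and both genes are grouped here for being called higher in them. Their shared sign is therefore no evidence of 14 separate falls. The estimate nearest to a call was Spred1 at 4 µM JAK3 inhibitor (adjusted p = 0.078), where its 2 samples read 5.55 and 6.64. Replicate 1, the lower, is the sample that read low across the array. Dusp10 had 6.62 and 7.31 in the same samples and differed by -0.56 (adjusted p = 0.108). Without both low-reading samples the differences at 4 µM JAK3 inhibitor were -0.29 for Spred1 (adjusted p = 0.355), -0.13 for Dusp6 (adjusted p = 0.78) and -0.24 for Dusp10 (adjusted p = 0.286).

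Dusp1 moved the other way. It had levels of 7.40 to 7.72 with IL-2 alone, and 8.64 and 8.40 at 0.25 µM JAK3 inhibitor, 8.22 and 8.39 at 1 µM, and 7.93 and 8.47 at 4 µM. All 6 were above every IL-2 sample. Dusp1 rose by 0.98 ± 0.17 at 0.25 µM (adjusted p = 0.00138), by 0.76 ± 0.17 at 1 µM (adjusted p = 0.00846) and by 0.66 ± 0.18 at 4 µM (adjusted p = 0.0283). With the JAK1 inhibitor it had 7.52 at 0.0625 µM, 7.77 and 7.88 at 0.25 µM, 8.27 and 8.38 at 1 µM, and 7.98 at 4 µM. The lowest dose lay within the IL-2 range and the others above it, and the rise was called at 1 µM (0.79 ± 0.17, adjusted p = 0.00837). The changes at 0.25 µM (0.29, adjusted p = 0.568) and 4 µM (0.44, adjusted p = 0.393) did not pass.

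The Dusp1 calls depended on single samples at each dose. The rise at 0.25 µM JAK3 inhibitor was lost without its replicate 1 (adjusted p = 0.103), that at 1 µM without either replicate (adjusted p = 0.0652 and 0.238), and that at 4 µM without IL-2 replicate 2 (adjusted p = 0.0525) or 3 (adjusted p = 0.0925) or inhibitor replicate 2 (adjusted p = 0.268). That at 1 µM JAK1 inhibitor was lost without either of its replicates (adjusted p = 0.0627 and 0.267). The estimates stayed positive in each of these fits. Leaving out both low-reading samples gave a rise of 0.92 at 4 µM JAK3 inhibitor (adjusted p = 0.000693), and in that fit Dusp1 was the only gene of the 10 called at this dose, with Dusp5 at -0.61 missing the threshold. Without the term for the intensity set, 0 of 10 genes were called against IL-2 with either inhibitor at any dose. The low-intensity set alone gave the same count. Without the term the Dusp1 difference at 4 µM JAK3 inhibitor was -0.16, a value that holds the scale difference between the sets.

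Markers of macrophages and monocytes, whose defining genes include Csf1r, Lyz2 and Adgre1, ran in the same direction as Dusp1 across these groups. Of 13 measured, 0 were higher and 10 lower in IL-2 samples than in untreated samples, with a median change of -1.93. Csf1r, the receptor of macrophage colony-stimulating factor, changed by -1.93, Lyz2, a lysozyme, by -1.87 and Adgre1, an adhesion receptor of macrophages, by -2.17. The mean log2 level of the 13 markers was 6.80 to 7.20 with IL-2 alone, 7.33 at 0.0625 µM JAK1 inhibitor, 7.67 to 7.87 at 0.25 µM, 8.61 to 8.76 at 1 µM and 8.51 at 4 µM. It was 8.64 to 8.74 at 0.25 µM JAK3 inhibitor, 8.80 to 8.81 at 1 µM and 8.64 to 8.85 at 4 µM, and 8.46 to 8.93 in untreated cells. Both the macrophage markers and Dusp1 were lowest with IL-2 alone and at 0.0625 µM JAK1 inhibitor, and next lowest at 0.25 µM JAK1 inhibitor. At 0.25 µM JAK3 inhibitor Dusp1 (8.40 and 8.64) lay above every untreated sample (7.76 to 8.24), while the macrophage markers stayed within their untreated range. Neutrophil and B cell markers were also low in those groups. The mean neutrophil level was 7.45 to 7.66 with IL-2, 7.49 and 7.87 to 7.89 at 0.0625 and 0.25 µM JAK1 inhibitor, and 8.10 to 8.46 untreated. It reached down to 7.55 at 4 µM JAK3 inhibitor. The B cell level was 8.4 to 8.6, 8.5, 8.7 to 8.8 and 8.8 to 9.1 in the first 4 of these groups. The part of any of these cells in the Dusp1 values was not tested. Of 12 NK cell markers, 10 were higher and 0 lower with IL-2, with a median of 1.57, and the mean level of the 12 was 9.39 to 9.78 with IL-2, against 8.10 to 8.37 in untreated cells. With the JAK1 inhibitor it was 9.41 at 0.0625 µM, 9.17 to 9.42 at 0.25 µM, 8.35 to 9.06 at 1 µM and 8.42 at 4 µM, and with the JAK3 inhibitor it was 8.29 to 8.34, 8.10 to 8.34 and 8.58 to 8.59 at rising doses. These marker levels ran in the direction of Spry2 and Dusp5 with IL-2, with the JAK3 inhibitor and at 1 and 4 µM JAK1 inhibitor. In the 1 sample at 0.0625 µM JAK1 inhibitor they stayed in the IL-2 range, while Spry2 (6.87) and Dusp5 (8.26) lay below every IL-2 sample. At 0.25 µM the marker levels overlapped that range, as did Dusp5 (8.21 and 8.38), while Spry2 (6.90 in both samples) did not. Neither gene was called at these doses. The part of NK cells in the Spry2 and Dusp5 values was not tested either. The perforin gene Prf1, which arms NK cells, changed by 2.82 ± 0.23 with IL-2. Of markers of other cells, 8 of 15 neutrophil, 5 of 14 B cell and 0 of 14 T cell genes were lower with IL-2 and 0 were higher, and of 12 dendritic cell genes 2 were lower and 2 higher. With no detection values, which of these cells were present cannot be called.

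The other genes showed no called change with either inhibitor. Dusp2 differed from IL-2 alone by between -0.43 and 0.11 over the 7 groups, Dusp4 by between -0.22 and 0.38, Dusp7 by between 0.02 and 0.37 and Spry1 by between -0.16 and 0.23. The median change of the 10 genes was -0.42 at 4 µM JAK1 inhibitor, beside -0.10 over all genes, and -0.29 at 4 µM JAK3 inhibitor, beside -0.04 over all genes.

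**Figure D3:**
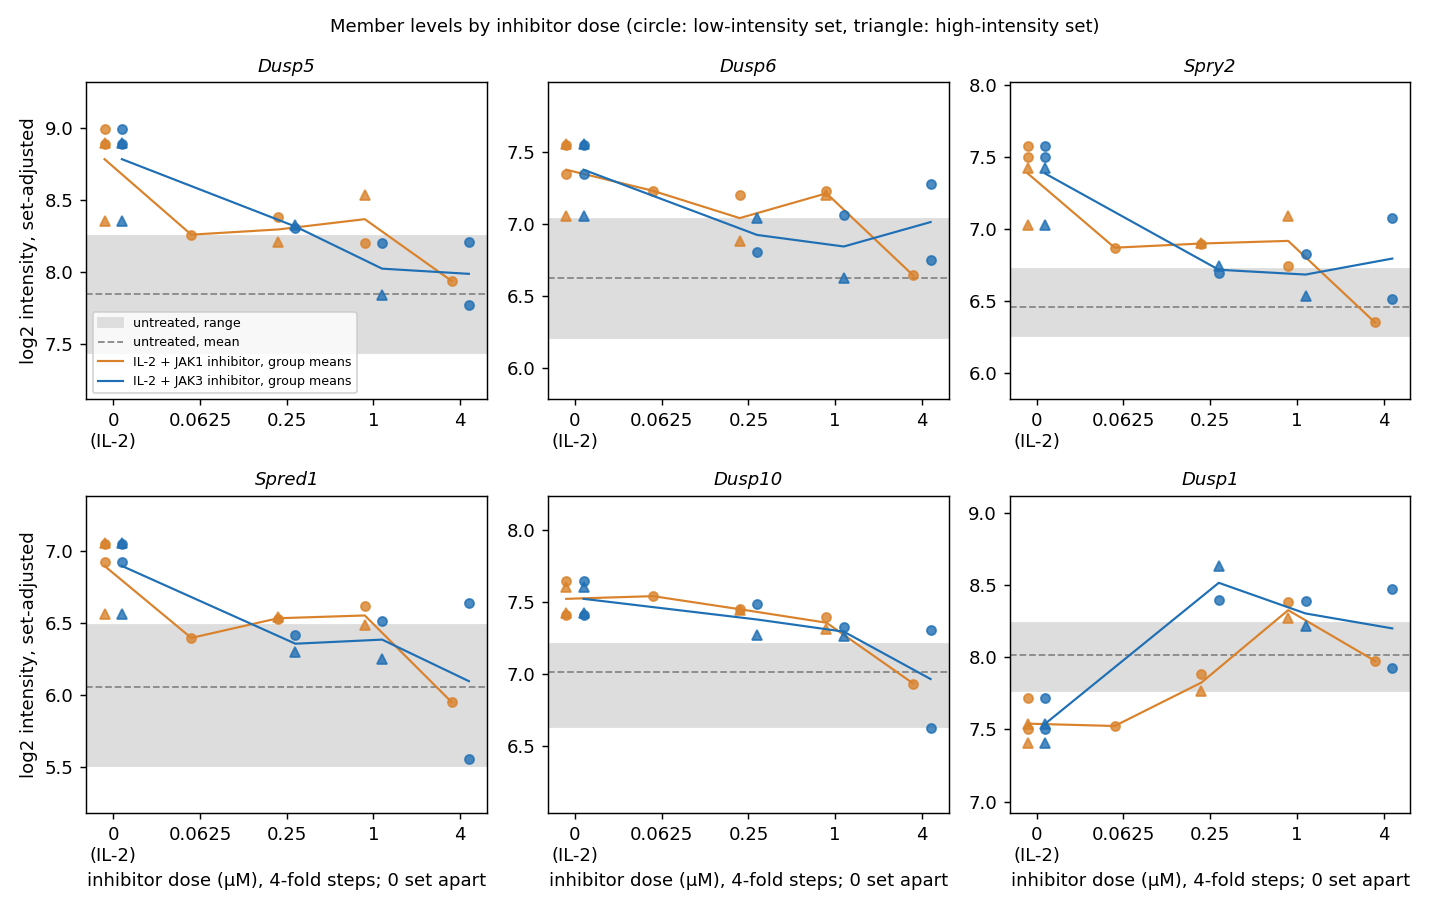
Log2 intensity after the set adjustment (y axis) of 6 genes against inhibitor dose in µM (x axis, 0 for the IL-2 samples, which are drawn once for each inhibitor), with 1 point per sample, lines through group means, and the range and mean of untreated samples as a grey band and dashed line. Dusp5 and Spry2 lie lower and Dusp1 higher at most inhibitor doses than with IL-2 alone, and Dusp1 at 0.25 µM is lower with the JAK1 inhibitor (7.77 and 7.88) than with the JAK3 inhibitor (8.64 and 8.40).

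Set against each other at matched doses, the inhibitors gave no called difference in any of the 10 genes. The counts were 0 of 10 at 0.25 µM, where 0.451% of all genes were called, 0 of 10 at 1 µM (0% of all genes) and 0 of 10 at 4 µM (0% of all genes). At an unadjusted p under 0.05 the counts were 1, 0 and 0 of 10, beside 6.59%, 0.845% and 2.69% of all genes. That 1 was Dusp1 at 0.25 µM, with levels of 7.77 and 7.88 under the JAK1 inhibitor, against 8.64 and 8.40 under the JAK3 inhibitor. The pairs did not overlap, and the difference of -0.69 ± 0.20 (95% interval -1.11 to -0.27) had an adjusted p of 0.206. It was called after quantile normalization (-0.60, adjusted p = 0.0171) and when only these groups were fitted (-0.69, adjusted p = 0.00116). For Spry2 the difference was 0.18 (-0.28 to 0.64) at 0.25 µM, 0.23 (-0.23 to 0.70) at 1 µM and -0.44 (-1.01 to 0.12) at 4 µM. For Dusp5 it was -0.02 (-0.54 to 0.50), 0.34 (-0.18 to 0.87) and -0.05 (-0.69 to 0.59) at the same doses. The Spry2 interval at 4 µM reaches -1.01, past the size of its IL-2 change of 0.92, so these values do not show that the compounds act alike. Without the low-reading samples the differences at 4 µM were -0.72 for Spry2 (adjusted p = 0.16) and -0.27 for Dusp5 (adjusted p = 0.642), and those of Dusp6 and Spred1 were -0.64 and -0.69.

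**Figure D4:**
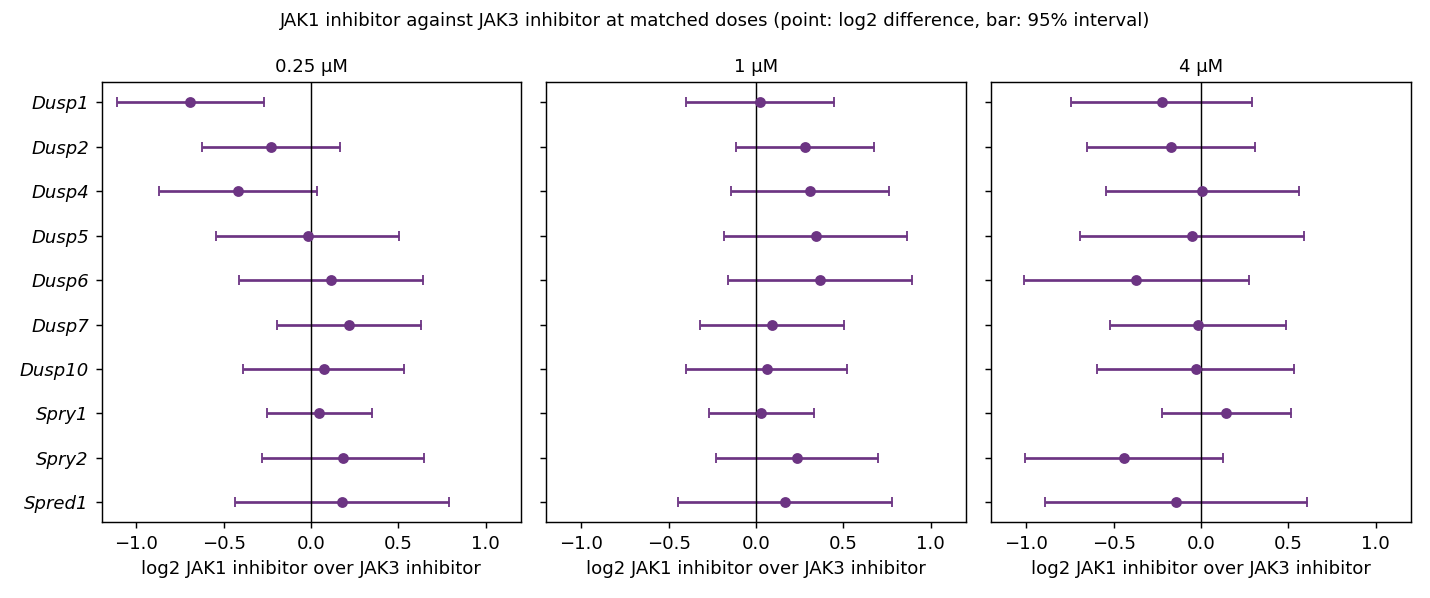
Log2 difference, JAK1 inhibitor over JAK3 inhibitor (x axis), of each of the 10 genes (rows) at 0.25, 1 and 4 µM, with 95% intervals as bars. The interval of Dusp1 at 0.25 µM lies below 0, and the other 29 intervals include 0.

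At 4 µM, 0 of 10 genes were called against untreated cells with either inhibitor, and the share called among all genes was 0% for both. Dusp5 lay above untreated cells by 0.09 (95% interval -0.52 to 0.70) with the JAK1 inhibitor and by 0.14 (-0.35 to 0.63) with the JAK3 inhibitor. Spry2 differed from untreated cells by -0.11 (-0.65 to 0.43) with the JAK1 inhibitor and by 0.33 (-0.10 to 0.76) with the JAK3 inhibitor. Without the low-reading samples Dusp5 differed by -0.14 with the JAK1 inhibitor and by 0.13 with the JAK3 inhibitor, and Spry2 by -0.23 and by 0.50 (adjusted p = 0.705 and 0.327). At an unadjusted p under 0.05 the count was 0 of 10 with both, beside 6.43% of all genes for the JAK1 inhibitor and 8.68% for the JAK3 inhibitor. The slope over 4-fold dose steps was called in 0 of 10 genes for the JAK1 inhibitor (2.78% of all genes) and 0 of 10 for the JAK3 inhibitor (0.152%), with 1 of 10 at an unadjusted p under 0.05 for each, beside 20.6% and 8.97% of all genes. For the JAK1 inhibitor slope, the replicate number as a block gave 4 of 10 called, all lower (Dusp6, Dusp10, Spry2 and Spred1). The 0.0625 µM sample is replicate 1 and the 4 µM sample replicate 2, so the block term shifts the ends of this slope. Dose and replicate number cannot be fully told apart in those calls. For the same slope, fitting only the groups compared gave 2, with Dusp1 higher (0.19 per dose step) and Dusp10 lower (-0.19 per dose step).

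The rest of the pathway was read from lists, for which the share of all genes called with IL-2 was 6.56% higher and 2.59% lower. Of 19 other dual-specificity phosphatase, Sprouty and Spred genes, 3 were higher and 0 lower with IL-2, with a median change of 0.01. They were Spred2 (1.43 ± 0.15, adjusted p = 2.16e-06), Spry4 (1.19 ± 0.15, adjusted p = 1.73e-05) and the phosphatase gene Dusp22 (0.66 ± 0.16, adjusted p = 0.0077). Both feedback inhibitors fell back with the drugs. Spred2 differed from IL-2 alone by -1.40, -1.56 and -1.44 with rising JAK3 inhibitor, and Spry4 by -1.14, -1.33 and -1.35, all called. With the JAK1 inhibitor both were called as lower at 1 µM (-0.99 for Spred2 and -1.18 for Spry4) and 4 µM (-1.36 and -1.13), and neither at 0.0625 or 0.25 µM. Dusp3, a phosphatase gene named after its values were seen, was higher at 1 µM JAK1 inhibitor (0.63 ± 0.18, adjusted p = 0.0411).

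Of 20 genes known to respond to ERK, 8 were higher and 0 lower with IL-2, with a median of 0.32 beside -0.01 over all genes. They were led by the growth regulator Myc (2.32 ± 0.19, adjusted p = 5.48e-08), the ERBB feedback inhibitor Errfi1 (1.54 ± 0.16, adjusted p = 1.56e-06) and the AP-1 gene Jun (1.38 ± 0.17, adjusted p = 9.18e-06). With the JAK1 inhibitor 0, 3, 5 and 5 of the 20 were lower than with IL-2 alone at 0.0625, 0.25, 1 and 4 µM, and 0 were higher. With the JAK3 inhibitor 5, 7 and 8 were lower at 0.25, 1 and 4 µM, and 1, the immediate early gene Fos, named after its values were seen, was higher at 1 µM (0.52 ± 0.13). Myc differed from IL-2 alone by -2.24 at 4 µM JAK1 inhibitor and by -2.51 at 4 µM JAK3 inhibitor, larger than the change of any of the 10 genes at those doses.

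Of 18 measured genes of the RAS-ERK cascade itself, 2 were higher and 1 lower with IL-2, with a median of 0.22. They were the RAS exchange factor genes Rasgrp1 (0.69 ± 0.15, higher) and Rasgrp2 (-0.71 ± 0.19, lower) and the GTPase gene Nras (0.57 ± 0.15, higher). Of 23 measured genes of the JNK and p38 cascades, 2 were higher and 0 lower, with a median of 0.07. These were Gadd45g (1.40 ± 0.19), a stress sensor that activates an upstream kinase, and the kinase gene Map3k8 (0.55 ± 0.14). Map3k8 is counted here because the list used placed it here, which does not tie its change to JNK or p38. Gadd45g was called as lower than with IL-2 alone at 0.25, 1 and 4 µM JAK1 inhibitor (-1.61, -1.25 and -1.62) and at the same doses of JAK3 inhibitor (-1.33, -1.36 and -1.53). In the RAS-ERK list, Rasgrp2 was higher than with IL-2 alone at 1 µM JAK1 inhibitor (0.95) and at 0.25 and 1 µM JAK3 inhibitor (0.89 at both), and Rasgrp1 was lower at 4 µM JAK3 inhibitor (-0.63). The adaptor gene Gab3 was higher at 0.25 µM JAK1 inhibitor (0.71). In the JNK and p38 list, the p38 gene Mapk11 was higher at 0.25 and 1 µM JAK3 inhibitor (0.82 and 0.85). Map2k6, which encodes a kinase that activates p38, was higher at 1 µM JAK1 inhibitor (0.59) and 4 µM JAK3 inhibitor (0.88). Gab3, Mapk11 and Map2k6 were named after their values were seen.

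Over the 9 group means, the members that rose with IL-2 ran close together. Pearson's r was 0.93 for Dusp6 and Spry2, 0.93 for Dusp5 and Spred1, 0.92 for Spry2 and Spred1, 0.91 for Dusp5 and Spry2, 0.86 for Dusp5 and Dusp6 and 0.84 for Dusp6 and Spred1. The 4 genes were taken for having risen with IL-2, a difference that enters the same means. These are descriptions over 9 means that share samples, intensity sets and the low-reading arrays. The genes of the whole array most like Dusp5 over the same means were Simc1 (r = 0.991), Ddx56 (0.988) and Nup88 (0.985). Those most like Spry2 were Cap1 (0.987), BC031181 (0.985) and Ddx31 (0.981).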

How the data were processed

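RNA of 19 samples was hybridized to 1 array each. The deposited intensity values, on a linear scale, were made by the authors with Affymetrix Power Tools and RMA per the submitters' processing notes, with no versions or settings given. The table held 24922 probe sets, of which 21425 had 1 gene symbol, 1399 several and 2098 none in the annotation table used. The brightest probe set stood for each of 19752 genes. No background or detection values were used here, so signal over background is unknown and the number of arrays limits the precision.

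Log2 values of all 19 samples were fitted in R 4.3.3 with limma 3.58.1 (lmFit with a mean per group and a term for the intensity set, then eBayes with an intensity trend). For each comparison the p-values of all 19752 genes were adjusted together (Benjamini-Hochberg), and 0.05 was the threshold. The set term takes a constant off each gene, so it cannot correct a change whose size differs between sets. The members and lists were chosen with earlier results of these data known. The genes named besides the members were up to 3 of each list with the smallest p among those past the threshold with IL-2, the 3 genes most correlated over group means with each of the 2 members most changed by IL-2, and defining markers of other cell types. Of 182 list entries 170 were matched. The promoter motifs were searched on both strands.

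Replicate numbers are shared between groups. Deviations of same-numbered samples from their group means correlated at between -0.54 and 0.70 (median -0.01 over 51 pairs). Those of differently numbered samples correlated at between -0.81 and 0.54 (median -0.0003 over 106 pairs). Deviations cancel within each group, which pulls such medians together, so these values cannot exclude a pairing. The numbers were treated as names only. The fit was tested on simulated data, with settings and outcome not reported here, so no result above rests on that test. Alternatives were no set term, quantile normalization, a filter on dim genes, the mean of probe sets, only the groups compared, the low-intensity set alone, a replicate block, and each replicate left out in turn. Leaving out both low-reading samples was added after the data had been seen. Python 3.11.15, numpy 2.4.6, pandas 2.3.3 and matplotlib 3.10.9 were used as well.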

Additional observations from a re-analysis of the deposited data

Results flagged for a closer look

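Dusp5 in the 4 IL-2 samples had 1 sample far from the others. IL-2 replicate 1 had a log2 level of 8.35, with the other three between 8.89 and 8.99, and its gap to the nearest of them was 0.842 of the whole range. Such gaps arise by chance in about 1 in 20 groups, and 10 were looked at, 1 for each gene in the IL-2 samples. Without that replicate the Dusp5 change, IL-2 over untreated, was 1.08 (adjusted p = 0.000498).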

How the results depend on the processing

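The counts of called genes among the 10 depended on the settings as follows. Without the intensity-set term 0 were called with IL-2, at every JAK3 inhibitor dose and at 1 and 4 µM JAK1 inhibitor. In that fit Dusp1 at 4 µM JAK3 inhibitor turned to -0.16, a value that holds the scale difference between the sets. Both samples of that group but only 2 of 4 IL-2 samples lay in the low-intensity set, and the fitted set difference of Dusp1 was 1.64. In the low-intensity set alone 0 were called at each JAK3 inhibitor dose and at 1 and 4 µM JAK1 inhibitor; fewer samples enter those fits. Quantile normalization gave 5 at 4 µM JAK3 inhibitor, 2, 3 and 3 at 0.25, 1 and 4 µM JAK1 inhibitor, and 1 between the inhibitors at 0.25 µM. Fitting only the groups compared gave 4, 5 and 1 at 0.25, 1 and 4 µM JAK3 inhibitor, 2, 2 and 3 at 0.25, 1 and 4 µM JAK1 inhibitor, 1 between the inhibitors at 0.25 µM and 2 for the JAK1 inhibitor slope. With the replicate number as a block the counts were 1, 1 and 1 at 0.25, 1 and 4 µM JAK3 inhibitor, 0 at 4 µM JAK1 inhibitor, 1 between the inhibitors at 0.25 µM and 4 for the JAK1 inhibitor slope. In that slope the single samples at the lowest and highest dose have different replicate numbers, so dose and block cannot be fully told apart. Leaving out both low-reading samples gave 5 with IL-2 and 1 at 4 µM JAK3 inhibitor. Leaving out 1 replicate gave 2 to 5 with IL-2, 0 to 2, 0 to 3 and 0 to 4 at 0.25, 1 and 4 µM JAK3 inhibitor, 0 to 1 and 0 to 2 at 1 and 4 µM JAK1 inhibitor, and 0 in the other comparisons. Over all settings and comparisons, 1540 member changes kept direction and side of the threshold, 67 lost the call, 44 gained it, 168 that were not called changed sign and 1 that was called turned. The cause of these moves was not tested.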
